A study of Mus musculus with 4 samples.

Results

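Retinoic acid, the vitamin A derivative that patterns the hindbrain and spinal cord, is made from retinol in consecutive oxidations and acts through nuclear receptors. Retinol enters cells through transporters, retinol dehydrogenases turn it into retinaldehyde, and retinaldehyde dehydrogenases make retinoic acid from that. CRABP proteins carry retinoic acid in the cytoplasm, CYP26 enzymes degrade it, and RAR receptors bind it on DNA together with RXR partners. In the developing spinal cord, retinoic acid comes first from the somites and later also from motor neurons and meninges.

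The genes described here are 9 members of this pathway among the 24421 genes with deposited values: *Stra6*, *Dhrs3*, *Aldh1a2*, *Cyp26b1*, *Crabp1*, *Crabp2*, *Rara*, *Rarb* and *Rarg*. They were found by their gene symbol, and all 9 were present. The set was selected on measured values of this comparison, *Crabp1* being among the most abundant genes that changed between the genotypes, so the levels and fold changes of the 9 genes are a description. No p-value is given for them, and where they are counted against the threshold used for all genes, the count is a description too.

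Transcripts were sequenced from neural tube cells of mixed ICR and C57Bl/6 mice at E11.5, after the cells had been sorted for GFP. In the *Prdm13* GFP allele, GFP and a stop codon sit in the first exon of *Prdm13*, a gene for a transcriptional repressor of the dorsal neural tube, so GFP is made where *Prdm13* is expressed and the allele disrupts PRDM13. Independently made founder strains of this allele were interbred. Controls were heterozygous (*Prdm13* GFP/+, 2 libraries), and thus themselves carry a disrupted copy, and mutants were homozygous (*Prdm13* GFP/GFP, 2 libraries). For each genotype the RNA of several embryos was combined before the 2 libraries were made, so standard deviations and tests hold only the spread of technical libraries, not that of embryos. The authors deposited RPKM, the reads on the exons of a gene scaled to exon length and to library size. Whole reads could be recovered from these values, and they summed to 12160026 and 19336307 in the control libraries and 17244703 and 14586191 in the mutant libraries.

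*Prdm13* itself had 114 and 127 RPKM in the control libraries and 310 and 324 RPKM in the mutant libraries. On the log2 scale the mutant was higher by 1.40 (SE, the standard error of the fit, 0.0613, adjusted p = 3.63e-05, limma). Transcripts of the GFP allele still count toward the gene, so this level does not report functional *Prdm13*. Of 11 markers of the dorsal neural tube, all were at or above 1 RPKM in at least 1 library, among them *Lbx1*, *Pax3* and *Pax7*. They summed to 593 and 656 RPKM in controls and to 393 and 410.1 RPKM in mutants, with 3 called higher (*Ptf1a*, *Tlx3* and *Lmx1b*) and 6 called lower (*Gsx1*, *Gsx2*, *Lbx1*, *Pax2*, *Lhx1* and *Lhx5*), where 3.65% and 2.67% of all genes tested were. Of these, *Lbx1* lost its call without the second control or the first mutant library. A call means here an adjusted p under 0.05 in limma with a change of 1.5-fold or more. In sorted cells measured in bulk, fewer cells of a type and less RNA per cell cannot be told apart, and this holds for every result that follows.

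Promoter stretches are shown because they carry the named elements of the genes the results turn on, with sequence and positions from RefSeq on GRCm38.p6. In *Crabp1*, capitals mark GGGCGG on either strand, the core of a GC box. In *Rarb* and *Cyp26a1*, capitals mark the hexamers of a direct repeat with 5 bases between them, the classical form of a retinoic acid response element.
Crabp1 (chr9:54764498-54764747, plus strand, the 250 bases before the start): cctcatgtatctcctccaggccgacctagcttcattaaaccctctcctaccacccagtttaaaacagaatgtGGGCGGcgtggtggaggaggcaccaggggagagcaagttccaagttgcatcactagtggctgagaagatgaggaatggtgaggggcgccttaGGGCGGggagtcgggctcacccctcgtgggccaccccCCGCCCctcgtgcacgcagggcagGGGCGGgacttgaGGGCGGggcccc
Rarb (chr14:16575497-16575556, minus strand): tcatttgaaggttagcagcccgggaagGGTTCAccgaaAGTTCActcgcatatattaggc
Cyp26a1 (chr19:37697748-37697807, plus strand): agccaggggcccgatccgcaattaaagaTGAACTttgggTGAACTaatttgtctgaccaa

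Promoter windows of 250 bases before to 50 bases after a start were found for 8 of the 9 genes, all but *Crabp2*. A direct repeat of the hexamer AGGTCA or its variants (AGTTCA or GGGTCA or GGTTCA) in any pairing, on either strand with 5 bases between, occurred in 31 of 27025 genes with a window (0.115%). *Rarb* was the 1 gene of the set among them, and *Cyp26a1*, outside the set, was another. With 1 or 2 bases between the hexamers, the repeat was in no window of these 8 genes and in 0.263% and 0.311% of all genes. The E-box CAGCTG, which reads the same on both strands, was in windows of 3 genes of the set (*Cyp26b1*, *Rara* and *Stra6*) and of 18.3% of all genes. GGGCGG was in windows of 5 of them (*Crabp1*, *Cyp26b1*, *Rara*, *Rarg* and *Stra6*) and of 38.2% of all genes. Windows of different starts of a gene can overlap, and a match describes these letters only.

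The cytoplasmic carriers *Crabp1* and *Crabp2* were by far the most abundant of the 9 genes, and they differed between genotypes in opposite directions. *Crabp1* (gene ID 12903, chromosome 9 from 54764748 to 54773110) had 292 and 302 RPKM in *Prdm13* GFP/+ and 1040.4 and 1093 RPKM in *Prdm13* GFP/GFP. The mutant libraries both lay far above the control libraries, with 13566 and 11986 reads against 2714 and 4435. The means were 297 ± 6.63 and 1066 ± 36.9 RPKM (SD over the 2 libraries of a genotype, n = 2, here and below), 3.59-fold more in the mutant and 1.84 on the log2 scale (SE 0.0447). All fold changes on the log2 scale are of RPKM + 0.1, which understates the change of low genes.

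*Crabp2* (gene ID 12904, chromosome 3 from 87948693 to 87953372) is the carrier known to deliver retinoic acid to RAR in the nucleus. It had 350 and 328 RPKM in controls and 229 and 243 RPKM in mutants. Its libraries did not overlap between genotypes, and both mutant libraries were the lower. The means of 339 ± 15.1 and 236 ± 10.2 RPKM differ by -0.52 on the log2 scale (SE 0.0525), short of 1.5-fold (0.58 on the log2 scale), and by -0.60, past it, after quantile normalization.

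Together the carriers came to 636 ± 8.50 RPKM in controls and 1302 ± 47.1 RPKM in mutants. *Crabp1* made up 45.5% and 47.9% of this sum in the control libraries and 82.0% and 81.8% in the mutant libraries. The order of the carriers thus turned over: *Crabp2* was the higher in both control libraries and *Crabp1* in both mutant libraries. By mean RPKM, *Crabp1* ranked 153 of 24421 genes in controls and 21 in mutants. Among the 440 genes called higher in the mutant it ranked 2 by its mutant level, after *Tmsb4x*. Without the second mutant library, 258 genes were called higher.

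**Figure D1:**
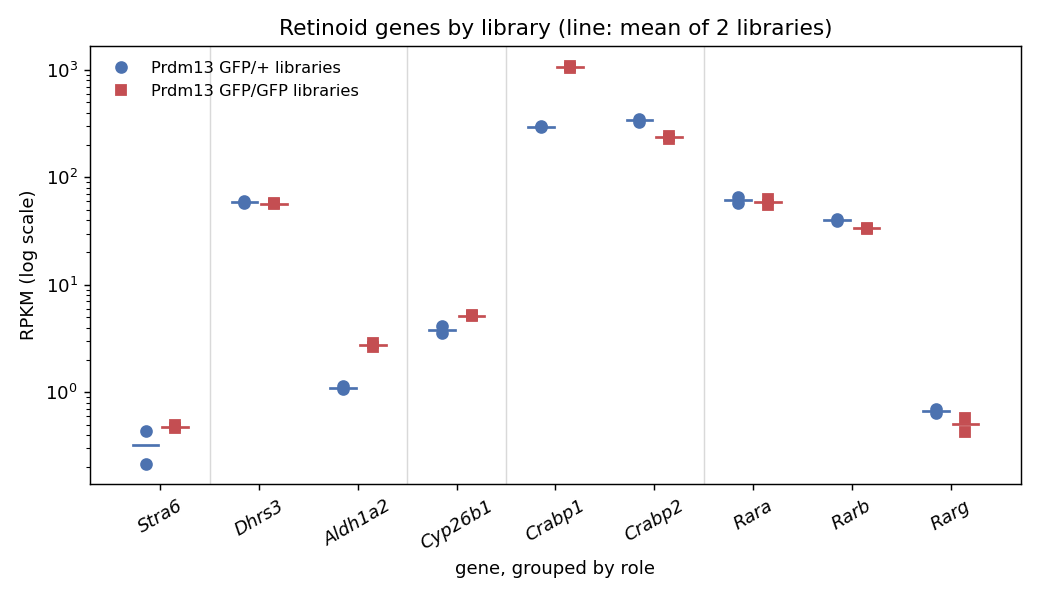
RPKM (log scale) of the 9 retinoid genes in each of the 2 *Prdm13* GFP/+ libraries (circles) and 2 *Prdm13* GFP/GFP libraries (squares), with a line at each mean. *Crabp1* separates most among the abundant genes (297 against 1066 RPKM), *Aldh1a2* among the low ones (1.10 against 2.76 RPKM), and the *Rara* points interleave.

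*Aldh1a2*, the main enzyme of embryonic retinoic acid synthesis, was at a low level in these cells and higher in the mutant. It (gene ID 19378, chromosome 9 from 71215789 to 71296243) had 1.07 and 1.13 RPKM in controls and 2.88 and 2.65 RPKM in mutants. These values rest on 28 and 47 reads in controls and 106 and 82 reads in mutants, and the genotypes did not overlap. The means were 1.10 ± 0.0455 and 2.76 ± 0.164 RPKM, 2.51-fold more in the mutant. On the log2 scale this was 1.25 (SE 0.149), and 0.84 with a pseudocount of 1.

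Cells that make *Aldh1a2* in the embryo include motor neurons and mesenchyme, and their markers were measured in the same libraries. The sort was for cells with GFP, that is with the *Prdm13* allele active, and *Prdm13* is known as a dorsal gene. How pure the sorted cells were is not given in the sources used here. Of 7 markers of differentiated motor neurons (*Mnx1*, *Chat*, *Slc18a3*, *Slc5a7*, *Lhx3*, *Lhx4* and *Isl2*), 0 reached 1 RPKM in any library, and their sums were 1.76 and 2.14 RPKM in controls and 1.13 and 1.20 RPKM in mutants. *Slc18a3* had the highest mean in controls and *Isl2* in mutants, and no marker of this list was at 0 in all libraries. The list leaves out genes known from motor neurons and their progenitors, but also from other cells, that were higher in the mutant. They are named here after their values were seen, and these data do not show which of the sorted cells held them. *Olig2*, a factor of motor neuron and oligodendrocyte progenitors, had 0 and 0.0224 RPKM in controls and 17.04 and 21.3 RPKM in mutants, and its neighbour *Olig1* 0 and 0.0754 RPKM and 10.7 and 11.05 RPKM. *Isl1*, which motor neurons and some dorsal interneurons express, had 1.71 and 1.66 RPKM in controls and 7.84 and 7.38 RPKM in mutants. All 3 thus moved with *Aldh1a2*, and their part in its level was not tested. By immunofluorescence, the paper places the ectopic OLIG2 protein of mutants in a dorsal interneuron domain, in cells that also express PTF1A. The 14 markers of mesenchyme and meninges summed to 15.7 and 17.8 RPKM in controls and 13.5 and 15.8 RPKM in mutants. *Tcf15* took 8.52 to 11.3 RPKM of these sums, and without it they were 6.21, 6.47, 4.97 and 5.17 RPKM. Of these markers with a mean under 1 RPKM in both genotypes, *Dcn* and *Meox1* were higher in both mutant libraries than in both controls. *Dcn* had 0.249 and 0.210 RPKM in controls and 0.413 and 0.596 RPKM in mutants. In the other direction, *Col3a1*, *Prrx1*, *Pdgfra*, *Foxc1* and *Foxc2* were lower in both mutant libraries. The part of these genes in the level of *Aldh1a2* was not tested. Only 2 mesenchymal genes could be tested, too few to set against the 6.33% of all genes called and the 17.3% higher and 16.8% lower at an unadjusted p under 0.05, and 0 met either threshold in limma.

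The other genes of synthesis and uptake in the set differed little or were barely detected. *Dhrs3*, a reductase that returns retinaldehyde to retinol (gene ID 20148, chromosome 4 from 144892534 to 144928209), had 59.7 and 58.3 RPKM in controls and 56.2 and 57.8 RPKM in mutants. Its mutant libraries both lay below the controls, but by only -0.051 on the log2 scale, about 1 standard error (SE 0.0465). *Stra6*, a retinol transporter (gene ID 20897, chromosome 9 from 58063793 to 58154004), had 0.214 and 0.435 RPKM in controls and 0.490 and 0.462 RPKM in mutants, from 9, 29, 29 and 23 reads. The control libraries differed from each other more than the means did, and *Stra6* stayed under the filter of a mean of 1 RPKM in either genotype.

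*Cyp26b1*, a hydroxylase that breaks down retinoic acid (gene ID 232174, chromosome 6 from 84571414 to 84593908), had 4.10 and 3.53 RPKM in controls and 5.09 and 5.19 RPKM in mutants. The mutant libraries were both the higher, from 401 and 344 reads against 230 and 314. The mutant was higher by 0.42 on the log2 scale (SE 0.0997), under 1.5-fold.

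Of the receptors, *Rara* and *Rarb* made up almost all RAR transcripts and *Rarg* hardly any. *Rara* (gene ID 19401, chromosome 11 from 98927800 to 98974942) had 57.2 and 65.1 RPKM in controls and 55.8 and 62.8 RPKM in mutants. Its libraries overlapped between genotypes, and the log2 difference of -0.044 (SE 0.0826) ran from -0.14 to 0.049 as each library was left out, so its sign is not settled. *Rarb* (gene ID 218772, chromosome 14 from 16430839 to 17082331), whose promoter holds the direct repeat shown above, had 41.0 and 39.7 RPKM in controls and 33.9 and 33.1 RPKM in mutants. The mutant libraries were both the lower, by -0.27 on the log2 scale (SE 0.0492). *Rarg* (gene ID 19411, chromosome 15 from 102234938 to 102257522) had 0.636 and 0.690 RPKM in controls and 0.579 and 0.430 RPKM in mutants, from 20 to 43 reads a library, and was under the filter.

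The RAR transcripts summed to 102 ± 4.72 RPKM in controls and 93.3 ± 4.31 RPKM in mutants. *Rara* was 59.8% ± 2.71 and 63.5% ± 2.41 of the sum, *Rarb* 39.5% ± 2.72 and 36.0% ± 2.27. Set against the carriers, there were 6.23 ± 0.371 RPKM of CRABP transcript for each RPKM of RAR transcript in controls and 14.0 ± 0.140 in mutants. The bars of carriers and receptors by library show how much of this came from *Crabp1*.

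**Figure D2:**
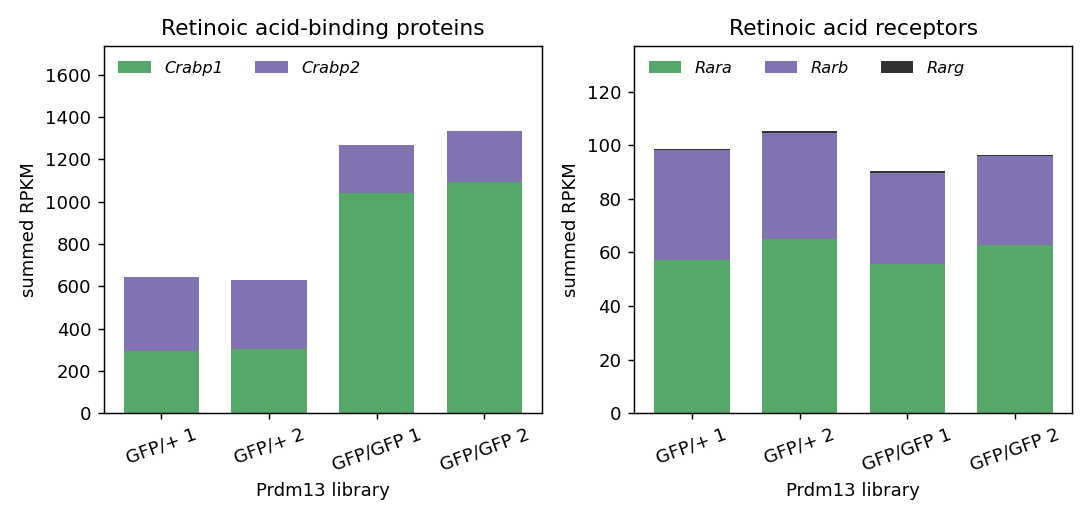
Summed RPKM of the CRABP genes (left) and of the RAR genes (right) in each library, stacked by gene and starting at 0. The CRABP sum goes from 636 to 1302 RPKM on average with *Crabp1* the larger part in mutants, while the RAR sums lie between 90.2 and 105 RPKM in all 4 libraries.

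By level, the 9 genes kept nearly the same order in both genotypes. Below the carriers came *Rara*, *Dhrs3*, *Rarb*, *Cyp26b1*, *Aldh1a2*, *Rarg* and *Stra6*. The libraries of *Rara* and *Dhrs3* overlapped in both genotypes, and those of *Rarg* and *Stra6* in mutants, so their order is not settled. All other neighbours in the order were apart in both libraries of a genotype.

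Of the 9 genes, 7 passed the filter, and 2 of these (*Crabp1* and *Aldh1a2*) met the rule for a call, where 6.33% of the 12046 genes tested did. Libraries did not overlap between genotypes for 8 of the 9, all but *Rara*, with 4 higher and 4 lower in the mutant. Among the 7 that were tested this was 6, with 3 higher and 3 lower. Over all genes tested, 62.1% did not overlap, 31.7% higher and 30.3% lower. Since the set was chosen with this comparison known, neither count is evidence about it. The median log2 fold change of the 7 was -0.044, beside 0.010 over all genes tested.

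The profile of *Crabp1* over the 4 libraries was set beside the 1691 other genes with a mean of at least 50 RPKM in either genotype. Likeness was the Euclidean distance of the log2 values, each centred on the gene's own mean. Since libraries of a genotype lay close together, this picks genes with a fold change near that of *Crabp1*. Whether such genes share cells or regulation with *Crabp1* was not tested. The nearest were *Ptf1a*, a bHLH activator of the inhibitory lineage, at a distance of 0.160 and *Sfrp2*, a secreted Wnt modulator, at 0.187. *Chrna4*, a nicotinic receptor subunit, followed at 0.235, *Pou4f1*, a homeodomain factor of excitatory neurons, at 0.264 and *Mfng*, a Notch glycosyltransferase, at 0.304. Their levels were lower than that of *Crabp1*: *Ptf1a* had 16.0 ± 1.41 and 56.5 ± 2.98 RPKM and *Chrna4* 44.9 ± 0.345 and 138 ± 4.97 RPKM in controls and mutants.

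Genes of the pathway outside the set were taken from lists made by function, and these were tested. The lists include the lipid-binding family of *Crabp1*, so its fatty acid-binding members are counted here too. Of 66 genes, 37 passed the filter, and 2 were called higher in *Prdm13* GFP/GFP and 2 lower, where 3.65% and 2.67% of all genes tested were. Of these 4 calls, 2 were left without the second control library, 2 without the first mutant library and 1 without the second mutant library. Whatever the fold, 5 had an adjusted p under 0.05 and were higher and 9 lower, beside 9.76% and 9.95% of all genes tested. At an unadjusted p under 0.05, 7 were higher and 12 lower, beside 17.3% and 16.8% of all genes tested. The plot of fold changes gives most of them with their errors.

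**Figure D3:**
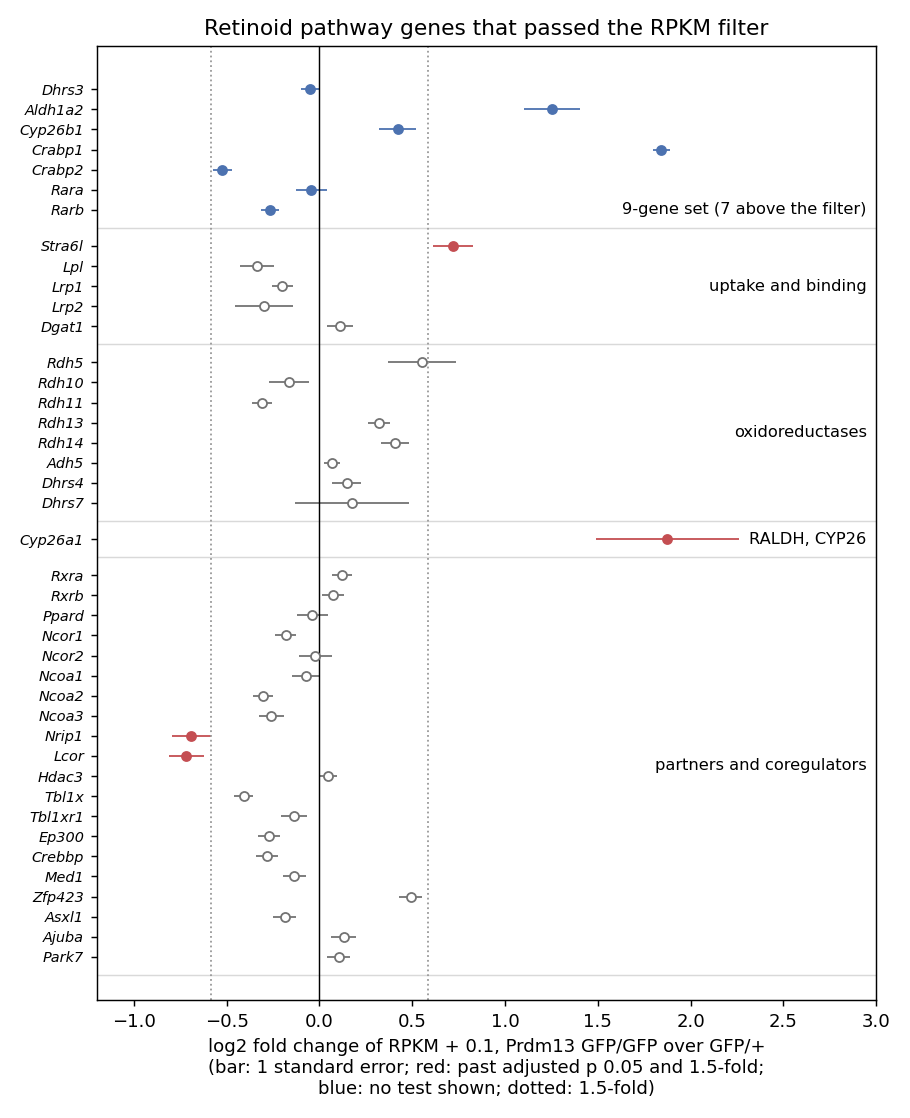
Log2 fold change (mutant over control, RPKM + 0.1) with 1 standard error for the retinoid genes that passed the filter, by role. The fatty acid-binding genes of the lipid-binding family of *Crabp1* are not drawn. Blue points are the set described above, shown without a test; among the others, the filled red points are *Stra6l*, *Cyp26a1*, *Nrip1* and *Lcor*, and the rest lie inside the dotted lines at 1.5-fold.

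*Cyp26a1* and *Stra6l* were the genes called higher. *Cyp26a1*, a second retinoic acid hydroxylase and a classical target of RAR, had 0.194 and 0.245 RPKM in controls and 1.21 and 0.944 RPKM in mutants. Both mutant libraries were above both controls, with 35 and 23 reads against 4 and 8. This came to 1.88 on the log2 scale (SE 0.386, adjusted p = 0.0192, limma), and to 0.77 with a pseudocount of 1. It passed the filter through the mutant libraries alone, so it had to differ to be tested. Without the second mutant library its adjusted p in limma was 0.0522, and without the first it did not pass the filter. It also did not pass a filter of 1 RPKM in both libraries of a genotype. The adjusted p was 0.0594 after quantile normalization and 0.108 with no filter, both in limma. *Cyp26c1* had reads in 1 library only, so *Cyp26b1* remained the most abundant CYP26 gene, and the sum of the 3 was 4.04 ± 0.363 RPKM in controls and 6.29 ± 0.228 RPKM in mutants.

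*Stra6l*, a relative of the retinol transporter *Stra6*, had 2.84 and 2.48 RPKM in controls and 4.53 and 4.35 RPKM in mutants. The mutant libraries were both the higher, by 0.72 on the log2 scale (SE 0.108, adjusted p = 0.00616, limma). The call was lost without the second control library (adjusted p = 0.0511), the first mutant library (adjusted p = 0.0603) or the second mutant library (adjusted p = 0.0684, all limma), and with a pseudocount of 1, which gave 0.57 on the log2 scale. Of the 12 genes of retinol uptake, binding and storage, 5 were tested, 1 was called higher and 0 lower, where 3.65% and 2.67% of all genes tested were. At an unadjusted p under 0.05, 1 was higher and 2 lower, beside 17.3% and 16.8%. *Lpl*, a lipase, differed by -0.34 on the log2 scale (adjusted p = 0.0464, limma), under 1.5-fold and past that p in 0 of the 4 fits with a library left out.

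Among the retinol and retinal oxidoreductases, 8 of 15 were tested and 0 were called, in limma as in limma voom on the recovered reads, where 6.33% of all genes tested were called in limma. At an unadjusted p under 0.05 in limma, 3 were higher and 1 lower, beside 17.3% and 16.8% of all genes tested. *Rdh10*, the dehydrogenase that embryos need to make retinaldehyde, had 2.93 ± 0.112 and 2.60 ± 0.0326 RPKM in controls and mutants (-0.17 on the log2 scale, SE 0.108, adjusted p = 0.334, limma). Shifts past an adjusted p of 0.05 but under 1.5-fold were those of *Rdh13* (0.32), *Rdh14* (0.41) and *Rdh11* (-0.31), which reduce retinaldehyde. With a library left out, *Rdh13* and *Rdh11* passed that p in 0 of 4 fits and *Rdh14* in 1 of 4. *Adh5*, an alcohol dehydrogenase of all tissues, was the most abundant at 81.3 ± 1.22 and 85.4 ± 0.486 RPKM. *Rdh7*, *Adh4*, *Adh7* and *Dhrs9* were listed at 0 in all 4 libraries. Of the other retinaldehyde dehydrogenases, *Aldh1a1* was listed at 0 throughout and *Aldh1a3* stayed under 0.04 RPKM, so *Aldh1a2* gave nearly all of the summed *Aldh1a1*, *Aldh1a2* and *Aldh1a3* level of 1.12 ± 0.0388 RPKM in controls and 2.78 ± 0.189 RPKM in mutants.

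Of 22 partners and coregulators of RAR, 20 were tested, 0 were called higher and 2 lower, and limma voom called the same 2, where 3.65% and 2.67% of all genes tested were called higher and lower. At an unadjusted p under 0.05 in limma, 1 was higher and 9 lower, beside 17.3% and 16.8% of all genes tested. The ones called lower were *Nrip1* and *Lcor*, corepressors that bind liganded nuclear receptors. *Nrip1* had 6.07 and 6.37 RPKM in controls and 4.16 and 3.50 RPKM in mutants (-0.69 on the log2 scale, SE 0.104, adjusted p = 0.00631, limma). *Lcor* had 4.45 and 4.52 RPKM in controls and 2.62 and 2.74 RPKM in mutants (-0.72 on the log2 scale, SE 0.0943, adjusted p = 0.00391, limma). For both, the mutant libraries lay below both controls. *Lcor* stayed called with each library left out, whereas *Nrip1* was lost without the second control (adjusted p = 0.0707, limma) or the second mutant library (adjusted p = 0.0591, limma), and both fell short of the fold with a pseudocount of 1.

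The partner receptors *Rxra* and *Rxrb* had 16.2 ± 0.411 and 32.6 ± 2.15 RPKM in controls and 17.6 ± 0.309 and 34.3 ± 0.577 RPKM in mutants, with adjusted p = 0.173 and 0.442 in limma. *Rxrg* was under the filter, with 10 and 19 reads in controls and 1 and 2 in mutants. Of the 20 partners and coregulators, 14 had a negative and 6 a positive log2 fold change, with a median of -0.14 beside 0.010 over all genes tested. Past an adjusted p of 0.05 at any fold, where 9.95% of all genes tested were lower and 9.76% higher, 7 were lower, among them the coactivators *Ncoa2* (-0.30), *Ncoa3* (-0.26), *Ep300* (-0.27) and *Crebbp* (-0.28) and the corepressor subunit *Tbl1x* (-0.41), and *Zfp423*, a cofactor of RAR, was higher (0.49). With a library left out, *Tbl1x* passed that p in 4 of 4 fits, *Zfp423* in 3, and *Ncoa2*, *Ncoa3*, *Ep300* and *Crebbp* in 0.

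Genes that textbooks name as targets of retinoic acid were listed in the same way. Known targets that are themselves part of retinoid handling, such as *Rarb* and the higher-called *Cyp26a1* described above, are not in this list, and *Nrip1* is in both this list and that of coregulators. Of 28, 17 passed the filter, 0 were called higher and 3 (*Ret*, *Hoxb1* and *Nrip1*) were called lower, where 2.67% of all genes tested were lower. Limma voom on the recovered reads called the same 3. At an unadjusted p under 0.05 in limma, 5 were higher and 9 lower, beside 17.3% and 16.8% of all genes tested. Without the second control or the second mutant library, 2 were called, *Nrip1* being the one lost. Their median log2 fold change was -0.14, and 11 of the 17 were negative.

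*Ret*, a receptor for GDNF family ligands, had 2.40 and 2.26 RPKM in controls and 0.880 and 0.727 RPKM in mutants (-1.43 on the log2 scale, SE 0.186, adjusted p = 0.00381, limma). Both mutant libraries lay below both controls, from 105 and 73 reads against 204 and 304, and *Ret* passed the filter through the controls alone, so it had to differ to be tested. *Hoxb1*, the Hox gene best known for its retinoic acid response elements, had 16.4 and 17.1 RPKM in controls and 8.97 and 9.50 RPKM in mutants (-0.85 on the log2 scale, SE 0.0619, adjusted p = 0.000354, limma). *Hoxb1* stayed called with each library left out.

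Other Hox genes of this list differed less. Hox levels, that of *Hoxb1* included, may also move with the extent of the dissected tissue, which was not tested. *Hoxb8*, the most abundant target, changed from 251 ± 1.84 to 192 ± 2.28 RPKM (-0.38, adjusted p = 0.00162, limma). *Hoxa4* differed by -0.23, *Hoxc5* by 0.18. The orphan receptors *Nr2f1* and *Nr2f2* went in opposite directions, *Nr2f1* from 99.4 ± 0.307 to 73.0 ± 0.453 RPKM (-0.44, adjusted p = 0.00114, limma) and *Nr2f2* from 23.6 ± 1.19 to 31.1 ± 0.861 RPKM (0.40, adjusted p = 0.00572, limma). *Btg2* (0.33), *Tshz1* (0.25) and *Meis2* (0.22) were higher past an adjusted p of 0.05 and under 1.5-fold. With a library left out, *Hoxb8* and *Nr2f1* passed that p in 4 of 4 fits, *Btg2* in 3, *Nr2f2* in 2, and *Hoxa4*, *Hoxc5*, *Tshz1* and *Meis2* in 0.

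**Figure D4:**
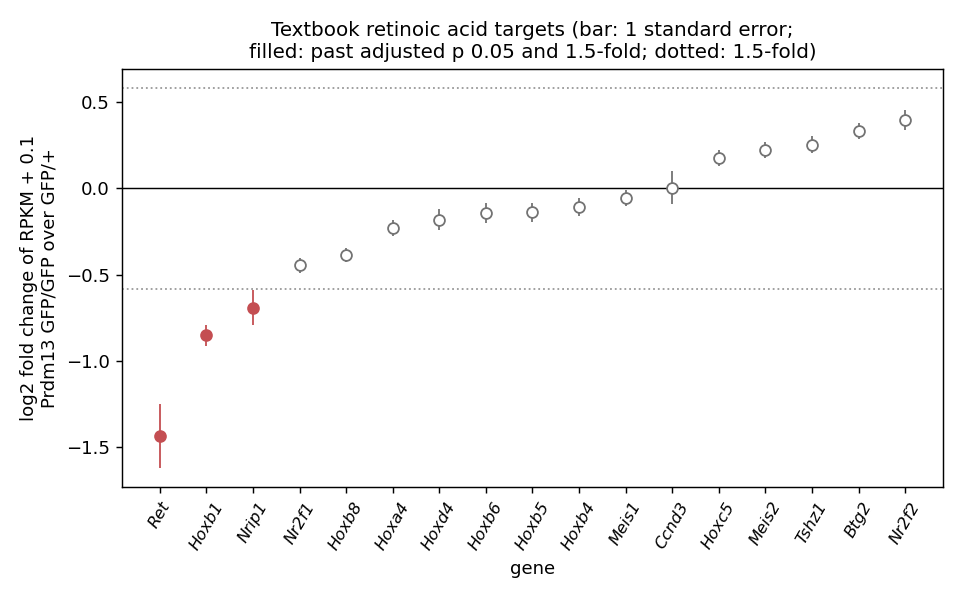
Log2 fold change (mutant over control, RPKM + 0.1) with 1 standard error of the 17 textbook retinoic acid targets that passed the filter, in order of size. The 3 filled points (*Ret*, *Hoxb1*, *Nrip1*) lie below the dotted line at 1.5-fold, and no gene of this list lies above the upper one. *Cyp26a1* (1.88) is not in the list and is not drawn.

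Markers of neurons and of other cells also differed between the genotypes. The 12 pan-neuronal markers summed to 1828 and 1875 RPKM in controls and 2398 and 2491 RPKM in mutants, with *Tubb3* the most abundant, and 4 were called higher (*Gap43*, *Nefl*, *Nefm* and *Stmn2*) and 1 lower (*Snap25*), where 3.65% and 2.67% of all genes tested were. *Stmn2* lost its call without the first mutant library. The 10 progenitor markers summed to 2237 and 2218 RPKM in controls and 2232 and 2315 RPKM in mutants, with *Vim* the most abundant. Of them, 1 (*Sox1*) was called lower, where 2.67% of all genes tested were. Past an adjusted p of 0.05 in limma at any fold, 4 were higher and 3 lower, beside 9.76% and 9.95% of all genes tested. They include *Sox3* (0.54 on the log2 scale) and *Sox2* (-0.48), both under 1.5-fold. Of 8 markers of dorsal root ganglion and neural crest, 2 were tested and *Foxd3*, which some spinal interneurons also express, was called lower. Their sums were 12.4 and 15.5 RPKM in controls and 7.24 and 7.59 RPKM in mutants, of which *Foxd3* took 10.1 and 12.8 RPKM in controls and 4.20 and 4.25 RPKM in mutants. Without *Foxd3* the sums were 2.28 and 2.73 RPKM in controls and 3.04 and 3.34 RPKM in mutants, higher in the mutant. The part of any of these lists in the levels of *Crabp1* and the other retinoid genes was not tested.

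Markers of other cells were scarce. The 8 roof plate markers summed to 13.5 and 14.2 RPKM in controls and 8.66 and 8.76 RPKM in mutants, most of it *Gdf10*, without which the sums were 2.97 and 3.15 RPKM in controls and 2.73 and 2.64 RPKM in mutants. The 2 that were tested, *Gdf10* and *Wnt1*, were called lower, where 2.67% of all genes tested were. *Wnt1* passed the filter through the controls alone, so it had to differ to be tested, and lost its call with any 1 library left out. Of the 6 under the filter, *Bmp6*, *Wnt3a*, *Lmx1a* and *Rspo3* were higher in both mutant libraries than in both controls, at most 1 RPKM in any library, and *Rspo1* lower. The 7 endothelial markers summed to 2.60 and 3.38 RPKM in controls and 3.18 and 3.66 RPKM in mutants, with *Cldn5* the most abundant. The 10 erythroid and myeloid markers summed to 0.609 and 0.588 RPKM in controls and 0.733 and 0.516 RPKM in mutants. *Alas2* was their most abundant gene, and the 4 globin genes of this list, which have near-identical copies, were listed at 0.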

How the data were processed

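RNA of GFP+ sorted cells was measured in 4 libraries, 2 technical libraries from 1 RNA pool for each genotype. The authors aligned the reads to mm10 with TopHat2 2.1.0, counted reads on the exons of RefSeq genes with featureCounts, normalized with TMM in edgeR 3.6.8 and deposited RPKM, which was used as deposited. Whether strand was used in counting is not given in the sources used here. Whole reads were recovered as whole multiples of a step solved for each gene (100.0% of 19200 genes above 0, tolerance at most 0.02 reads); solved lengths were within 5% of the annotated exon length for 72.2% of 18243 genes. A count of 0 in a library allows up to 3 reads, for counting error alone.

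The fit took the 12046 genes whose mean reached 1 RPKM in one genotype or the other. It used limma 3.58.1 under R 4.3.3 (lmFit, then eBayes with a mean-variance trend) on log2 of RPKM + 0.1, with two-sided p-values adjusted after Benjamini and Hochberg over all 12046. Calls needed an adjusted p below 0.05 plus a 1.5-fold change or more. With 2 libraries against 2, no exact permutation p can be smaller than 0.333. In simulated libraries of this comparison (11963 genes), 197 of 200 changed and 31 unchanged genes were called. These counts are not split by fold or level, and how often genes with the folds and levels of those named here would be called was not tested.

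The set of 9 genes and the lists were chosen with earlier results of these data known. Some genes of the lists are not reported here. They were dropped from the list counts and sums, a choice made with their values known. The lists are retinol uptake, binding and storage; retinol and retinal oxidoreductases; retinal dehydrogenases and retinoic acid hydroxylases; the lipid-binding family of *Crabp1*; RAR partners and coregulators; retinoic acid targets; and markers of dorsal neural tube, progenitors, neurons, motor neurons, mesenchyme and meninges, roof plate, dorsal root ganglion and neural crest, endothelium, and erythroid and myeloid cells. Named were *Prdm13*, the 9 genes, listed genes (called ones first, then the most abundant) and the 5 genes most like *Crabp1*. *Tmsb4x* and others named beyond this rule were chosen after their values were seen. Python 3.11.15 with pandas 2.3.3, numpy 2.4.6 and matplotlib 3.10.9 made the tables and plots. The alternatives were pseudocounts of 1 and 0.01, no filter, a filter on both libraries, median ratio scaling, quantile normalization, the replicate number as a block, eBayes with no trend, limma voom on recovered reads, and leaving out each library.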

Additional observations from a re-analysis of the deposited data

How the results depend on the processing

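*Crabp1* ranged from 1.75 to 1.88 on the log2 scale over all alternatives, *Crabp2* from -0.60 to -0.48, *Aldh1a2* from 0.84 to 1.32, *Cyp26b1* from 0.32 to 0.53 and *Rarb* from -0.30 to -0.24. Without a filter on low values, 44 genes were called across the table, 0 among the retinoid pathway genes outside the set and 0 among the targets (20 of 66 and 11 of 28 at an unadjusted p under 0.05, beside 4400 of all 24421, and 4 and 3 called in limma voom with the filter), and *Prdm13* itself was lost (adjusted p = 0.0619, limma). With a pseudocount of 1, 555 genes were called across the table, 1 pathway gene and 2 targets among them, against 762, 4 and 3 with a pseudocount of 0.1. With 1 library left out at a time, 470 to 687 genes were called across the table, 1 to 4 pathway genes and 2 to 3 targets, the fewest in each case without the second mutant library (for targets also without the second control library), and the log2 fold change of *Fabp7* ran from -0.15 to 0.013, positive without the first control library. Where a single library remains in a genotype it is assumed to vary like the other. With the replicate block, 801 genes, 4 pathway genes and 3 targets were called; the numbers are not known to pair libraries, and the deviations of same-numbered libraries correlated with r = 0.0475 over 12046 genes. Libraries of a genotype differed by more than read sampling, with a mean chi-square per gene of 2.57 in controls and 2.5 in mutants where sampling alone gives 1. Depth limits *Cyp26a1*, *Rarg*, *Rxrg* and *Stra6*, with at most 43 reads in a library.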

Other observations

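CRABP1 belongs to a family of small intracellular lipid-binding proteins, and other members of this family were among the most abundant transcripts of the sorted cells. Of 12 relatives listed, 3 were tested and 0 were called in limma or in limma voom on the recovered reads, where 6.33% of all genes tested were called in limma. At an unadjusted p under 0.05, 1 was higher and 0 lower, beside 17.3% and 16.8% of all genes tested. *Fabp7*, a fatty acid-binding protein of neural progenitors, had 704 and 627 RPKM in controls and 629 and 636 RPKM in mutants (log2 fold change -0.071, adjusted p = 0.449, limma, and 0.013 without the first control library). *Fabp5*, which can carry retinoic acid to another nuclear receptor, had 239 and 199 RPKM in controls and 257 and 249 RPKM in mutants (log2 fold change 0.21, adjusted p = 0.132, limma). For *Fabp5* this was 0.35 without the first control library (adjusted p = 0.0239, limma) and 0.080 without the second (adjusted p = 0.388, limma), and limma voom gave an adjusted p of 0.0121, under 1.5-fold in each case. The control libraries of *Fabp5* and *Fabp7* differed from each other more than the mutant libraries did. *Fabp3* stayed between 4.01 and 5.67 RPKM, and 6 relatives (*Fabp1*, *Fabp4*, *Fabp6*, *Fabp9*, *Fabp12* and *Pmp2*) were listed at 0 in all 4 libraries. In mutants, *Crabp1* was thus above *Fabp7*, the highest of its relatives in controls.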
